A study of Mus musculus with 8 samples.

Results

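The nuclear-encoded genes of oxidative phosphorylation were examined in sorted luminal cells of mouse mammary glands, that is, in the milk-producing inner layer of the epithelium. Members were the array genes whose symbol begins with Ndufa, Ndufb, Ndufc, Ndufs, Ndufv, Uqcr, Uqcc, Cox4 to Cox8 or Atp5, together with Sdha to Sdhd, without pseudogene symbols. The probe set of highest mean over all arrays stood for each gene. The rule found 96 genes among the 19505 genes with a symbol. They comprised 36 genes of complex I, 4 of complex II, 8 of complex III, 20 of complex IV, 17 of complex V and 11 assembly factors. Ndufa4 and Ndufa4l2 were counted with complex IV, in which their proteins are found.

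The a3a6KO cells were set against control cells, with 4 arrays each. The a3a6KO cells carried a knockout that the labels name for the alpha 3 and alpha 6 integrin chains, which bind laminin and are encoded by Itga3 and Itga6. The control cells are labelled as Ctrl luminal cells, without further detail of their genotype. Both groups came from fresh tissue of mice at day 15 of pregnancy that was dissociated enzymatically and labelled for cell sorting, and 500 pg of total RNA from each sample was amplified. The strain, the Cre line, the deleted part of either gene and any pooling of animals are not given here. The titles of the a3a6KO samples also carry the word Ctrl, while their source name and subtype label name the knockout, so the groups stand as labelled.

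Oxidative phosphorylation takes place in the inner mitochondrial membrane. Complexes I and II pass electrons from NADH and succinate to coenzyme Q, complex III passes them on to cytochrome c, and complex IV hands them to oxygen. Complexes I, III and IV pump protons across the membrane as they do so, and complex V, the ATP synthase, uses the returning protons to make ATP. Nearly all subunits are encoded in the nucleus, and a few core subunits of complexes I, III, IV and V are encoded in the mitochondrial genome. In the mammary gland, mitochondria become more abundant as alveolar cells prepare for the energy demand of milk secretion.

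The nuclear regulators NRF1, GABP, YY1, SP1 and the estrogen-related receptors are known to act at promoters of these genes. RefSeq promoter windows of build GRCm38.p6, from 250 bases before to 50 bases after the transcription start, were found for 80 of the 96 members, in 85 windows. The NRF1 motif GCGCANGCG, searched on both strands, occurred in 24 of these 85 windows (28.2%), against 9.03% of 19143 windows of all genes on the arrays. The ETS motif bound by GABP, CCGGAAG, occurred in 22.4% of member windows and 11.8% of array gene windows. The YY1 motif AAGATGGC occurred in 12 member windows (14.1%) and in 3.1% of array gene windows. The estrogen-related receptor motif TCAAGGTCA occurred in only 2 member windows (2.35%), and in 0.303% of array gene windows. For the SP1 motif GGGCGGG the shares were 36.5% of member windows and 35.2% of array gene windows. For CCAAT they were 43.5% of member windows and 37.9% of array gene windows, and for TATAAA 10.6% of member windows and 12.3% of array gene windows. The median GC content was 57.7% in member windows and 57.0% in those of all array genes, and the median number of CpG pairs was 19 in member windows and 14 in the others. These shares describe letters in a window, and a motif that is absent from it may lie elsewhere.

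The sequences below, from 250 bases before to 30 bases after the start, are those of Ndufv2, Ndufb8 and Ndufaf3, whose values did not overlap between the groups, and of Sdhd, Atp5g2 and Uqcrc1, members of complexes II, V and III with an NRF1 match. Uqcrq, whose values also did not overlap, was among the members without a window. Capitals mark matches to the NRF1, ETS, SP1 or CCAAT motif on either strand, and all other bases are in lower case.
Ndufv2, chr17:66101530-66101809, minus strand: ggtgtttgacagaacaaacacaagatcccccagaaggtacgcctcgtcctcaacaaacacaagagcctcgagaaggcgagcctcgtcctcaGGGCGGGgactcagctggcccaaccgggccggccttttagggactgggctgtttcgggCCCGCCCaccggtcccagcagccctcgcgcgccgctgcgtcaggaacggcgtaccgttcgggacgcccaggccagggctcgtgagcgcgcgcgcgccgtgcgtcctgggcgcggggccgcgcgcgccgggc
Ndufb8, chr19:44555413-44555692, minus strand: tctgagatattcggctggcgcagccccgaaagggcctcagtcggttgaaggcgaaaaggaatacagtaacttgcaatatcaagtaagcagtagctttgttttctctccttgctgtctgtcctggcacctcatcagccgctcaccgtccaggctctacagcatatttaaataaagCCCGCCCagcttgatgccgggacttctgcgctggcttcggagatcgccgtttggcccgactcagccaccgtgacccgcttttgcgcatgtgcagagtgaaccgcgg
Ndufaf3, chr9:108567407-108567686, minus strand: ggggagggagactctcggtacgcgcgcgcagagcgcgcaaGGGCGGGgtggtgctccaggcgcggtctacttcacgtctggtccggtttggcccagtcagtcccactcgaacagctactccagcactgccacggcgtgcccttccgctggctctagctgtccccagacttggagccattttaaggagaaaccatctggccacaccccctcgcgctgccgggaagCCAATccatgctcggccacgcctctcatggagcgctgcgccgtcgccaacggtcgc
Sdhd, chr9:50603820-50604099, minus strand: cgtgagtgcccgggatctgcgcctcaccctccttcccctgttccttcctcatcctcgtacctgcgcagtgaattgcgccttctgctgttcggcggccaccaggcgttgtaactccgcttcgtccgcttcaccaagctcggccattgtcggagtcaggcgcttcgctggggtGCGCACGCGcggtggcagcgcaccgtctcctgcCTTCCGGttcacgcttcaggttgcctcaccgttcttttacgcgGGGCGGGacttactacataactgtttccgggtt
Atp5g2, chr15:102671018-102671297, minus strand: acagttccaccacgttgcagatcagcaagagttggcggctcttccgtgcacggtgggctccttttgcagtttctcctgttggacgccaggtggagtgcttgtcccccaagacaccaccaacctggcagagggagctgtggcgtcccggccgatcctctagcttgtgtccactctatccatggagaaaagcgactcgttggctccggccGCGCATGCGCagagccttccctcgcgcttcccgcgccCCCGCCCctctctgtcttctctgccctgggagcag
Uqcrc1, chr9:108936398-108936677, plus strand: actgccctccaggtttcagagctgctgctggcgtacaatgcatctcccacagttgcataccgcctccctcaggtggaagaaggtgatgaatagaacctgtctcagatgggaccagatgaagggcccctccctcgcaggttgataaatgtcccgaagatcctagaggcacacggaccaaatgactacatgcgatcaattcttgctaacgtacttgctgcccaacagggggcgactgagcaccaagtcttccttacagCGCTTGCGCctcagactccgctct
The Ndufv2 window held SP1 matches whose first bases lay at positions -159 and -101 from the start and no match to the NRF1 or ETS motif. In Ndufb8 the SP1 match began at -76, and a YY1 match began at 39, beyond the printed bases. Ndufaf3 held an SP1 match at -210 and a CCAAT match at -26. Sdhd held an NRF1 match at -79, an ETS match at -46 and an SP1 match at -3. An estrogen-related receptor match in Sdhd began at 37, beyond the printed bases. In Atp5g2 the overlapping NRF1 matches on the plus and minus strands began at -42 and -41, and an SP1 match at -5. In Uqcrc1 an NRF1 match began at 7, and overlapping ones at 31 and 32, beyond the printed bases. Among the 80 members with a window, the median log2 difference between the groups was -0.07 for the 23 with an NRF1 match and -0.03 for the 57 without one. With and without a match it was -0.055 and -0.03 for ETS, and -0.058 and -0.039 for YY1. It lay the other way for SP1 (-0.009 and -0.055), CCAAT (-0.02 and -0.048) and TATAAA (-0.039 and -0.044). For the estrogen-related receptor motif, with a match in 2 members, it was -0.376 and -0.039. These gaps were not tested.

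Values are log2 intensities after RMA, a method that corrects background, equalises the distribution of the arrays and summarises the probes of a set. A gene was called above background on an array if it exceeded the 95th percentile of the 5222 negative control sets there, which lay between 6.38 and 6.90. The number of genes above it ranged from 2244 to 3229 per array. Precision was limited by the number of arrays. Of the targeted genes, Itga6 was at 5.95, 3.65, 8.21 and 7.85 in a3a6KO 1 to 4, against 8.83, 8.73, 9.14 and 8.80 in control 1 to 4. Itga3 was at 5.11, 4.34, 5.55 and 5.60 in a3a6KO, against 6.72, 6.30, 5.37 and 7.27 in control. The Itga3 groups overlapped, and only 1 array, control 4, exceeded background. The samples a3a6KO 3 and 4 therefore stayed closest to control in Itga6, and the member values are also given without them. Such fits keep only a3a6KO 1 and 2 of the knockout arrays. The mean deviation of the members from their own mean was lowest in a3a6KO 1 (-0.18) and highest in the omitted a3a6KO 4 (0.10). Its part in the fits without a3a6KO 3 and 4 was not tested. The 10 luminal markers exceeded background on every array. In sorted bulk cells, fewer cells of a type and less RNA per cell cannot be told apart.

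Transcripts of the oxidative phosphorylation genes were plentiful in these cells, and no member passed the test between a3a6KO and control. Above background on all 8 arrays were 61 of the 96 members (63.5%), against 8.25% of all genes, whereas 19 members were above it on none. After Benjamini-Hochberg adjustment over all 19505 genes, limma called 0 of the 96 members, and 0 of all genes (0%), at an adjusted p under 0.05. The smallest adjusted p of a member was 0.944. At an unadjusted p under 0.05 stood 4 members, all lower in a3a6KO (4.17% of members), beside 5.13% of all genes in either direction and 2.73% lower in a3a6KO. The share of members was thus near that of all genes.

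The mean was lower in a3a6KO for 57 members and higher for 39, where 50.1% of all genes had the lower mean in a3a6KO. The median log2 difference, a3a6KO minus control, was -0.04 over the members and -0.0025 over all genes. It was -0.10 without a3a6KO 3 and 4, and -0.00042 without a3a6KO 1. Single members ranged from -1.01 for Cox8b to 0.62 for Cox6b2, both under background on every array. For 75 members (78.1%) the 95% interval of the difference lay within a 2-fold change in either direction, as it did for 74.5% of all genes. Among the 61 members above background on all arrays, 59 (96.7%) had an interval within 2-fold and 40 (65.6%) within 1.5-fold. For all 1609 genes above background on all arrays, these shares were 85.6% and 35.7%. The differences of the 61 members ranged from -0.51 for Ndufa1 to 0.35 for Atp5g1. The median standard deviation within groups was 0.21 for these 61 members, beside 0.30 for the 1609 genes above background on all arrays.

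**Figure D1:**
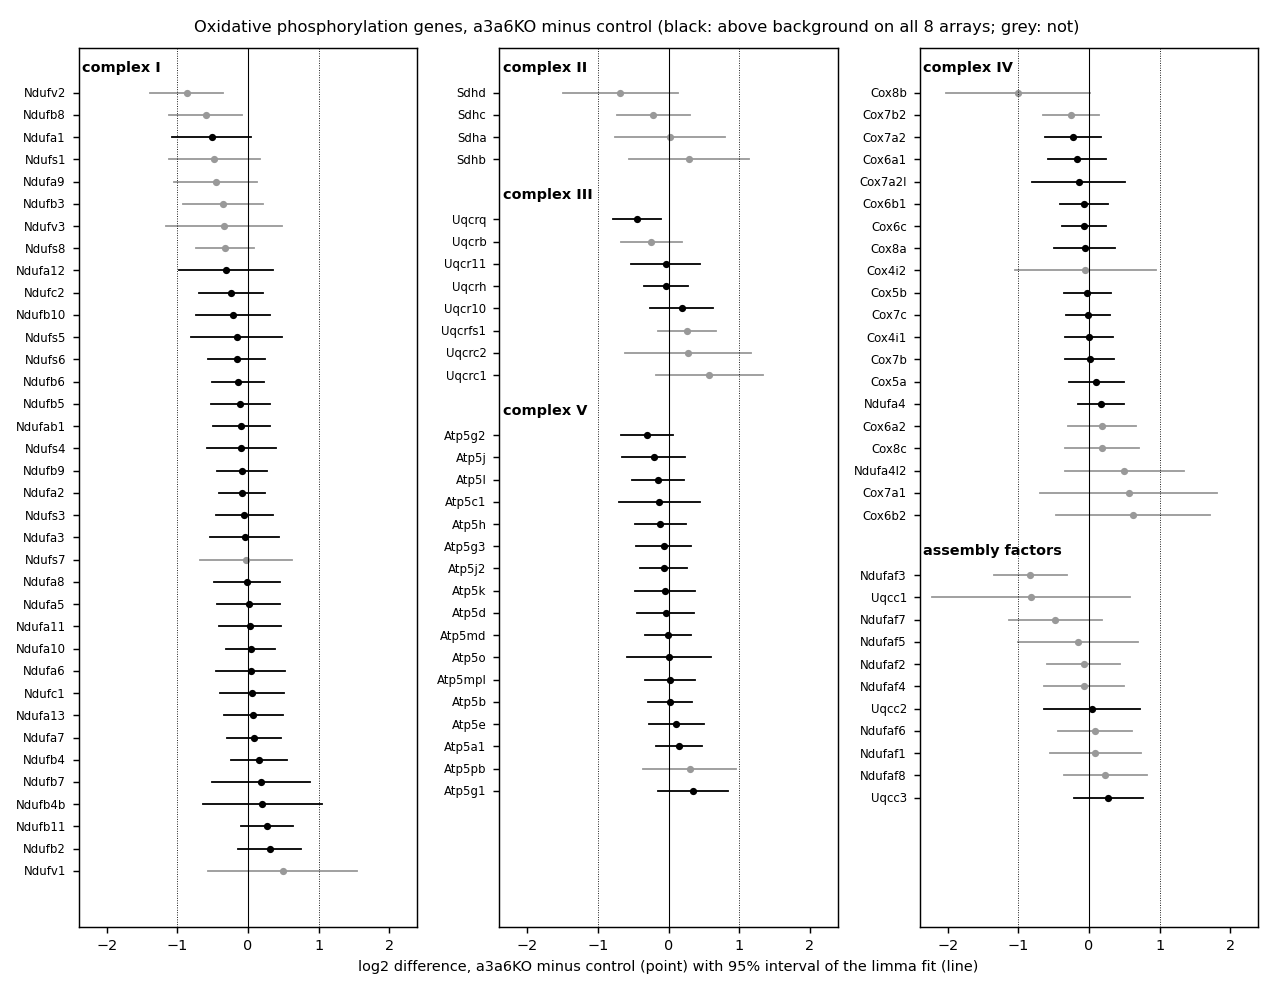
Each point is the log2 difference of a gene, a3a6KO minus control (x axis, log2 units), with the 95% interval of the limma fit as a line, grouped by complex. Black marks genes above background on all 8 arrays and grey marks the others. Dotted lines stand at a 2-fold change in either direction. The black points lie between -0.51 and 0.35, and the widest intervals belong to grey genes such as Uqcc1 and Cox7a1.

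The 4 members at an unadjusted p under 0.05 were Ndufv2, Ndufaf3, Uqcrq and Ndufb8, and these were also the only members whose a3a6KO values all lay below all control values. Non-overlap with lower values in a3a6KO was seen in 1.56% of all genes, and non-overlap in either direction in 2.94%. Ndufv2 encodes a core subunit of the NADH-binding arm of complex I that carries an iron-sulfur cluster. It was at 4.79, 5.23, 4.72 and 5.43 in a3a6KO, against 6.19, 5.96, 5.46 and 6.03 in control. Its highest a3a6KO value and its lowest control value were nearly the same. The difference was -0.87 (SE 0.23, unadjusted p = 0.0042, adjusted p = 0.944 in limma). Ndufv2 exceeded background on no array, so the signal was within the range of the negative control sets and no fold change is given.

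Ndufb8 encodes an accessory subunit of the membrane arm of complex I whose protein is often used as a marker of the assembled complex. Its values were 5.91, 5.37, 6.21 and 6.15 in a3a6KO, against 6.30, 6.80, 6.65 and 6.28 in control. The lowest controls, 4 and 1, lay just above a3a6KO 3 and 4. The log2 difference was -0.60 (SE 0.23, unadjusted p = 0.0276 in limma). When single samples were left out, the unadjusted p ranged from 0.0205 to 0.0762 and stayed under 0.05 in 4 of 8 fits. The difference was -0.42 without a3a6KO 2 and -0.87 without a3a6KO 3 and 4. Ndufb8 exceeded background on 2 control arrays and on no a3a6KO array, and no fold change is given for it either.

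Ndufaf3, an assembly factor of complex I, was at 4.56, 4.10, 3.94 and 4.14 in a3a6KO, against 4.76, 4.73, 5.56 and 5.01 in control. The difference of -0.83 (SE 0.23, unadjusted p = 0.0055 in limma) came from values under background on every array. Uqcrq, a small subunit of complex III, was the one member of the 4 that exceeded background on all arrays. It stood at 9.14, 9.21, 9.18 and 9.38 in a3a6KO, against 9.59, 9.87, 9.58 and 9.67 in control. Every control lay above a3a6KO 4, the highest of its group. The difference was -0.45 (SE 0.15, 95% interval -0.79 to -0.11, unadjusted p = 0.0148, adjusted p = 0.944 in limma), a 1.37-fold lower level. Without a3a6KO 3 and 4 the differences were -0.90 for Ndufv2, -0.69 for Ndufaf3 and -0.50 for Uqcrq.

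**Figure D2:**
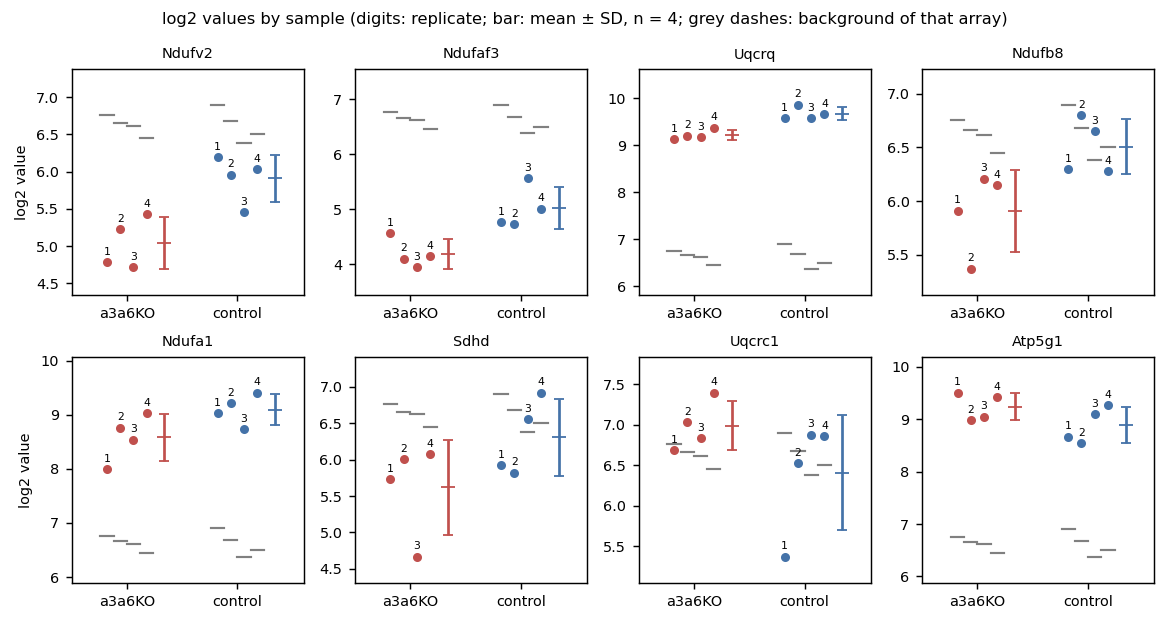
Log2 values (y axis) of 8 members in each sample, with a3a6KO in red left of control in blue, replicate numbers as digits, the mean ± SD (n = 4) as a bar and the background of each array as a grey dash. In Ndufv2, Ndufaf3, Uqcrq and Ndufb8 the groups do not overlap, and only Uqcrq among these lies above the dashes throughout. In Ndufa1, Sdhd, Uqcrc1 and Atp5g1 the groups overlap.

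Complex I, the NADH dehydrogenase, had 23 of 36 members lower and 13 higher in a3a6KO, with a median difference of -0.09 that ranged from -0.14 to -0.04 when single samples were left out. Its 10 Ndufs and Ndufv genes include the core subunits that carry flavin and iron-sulfur clusters as well as accessory ones. They had 9 lower means (90%, beside 50.1% of all genes), a median of -0.16, and 4 members above background on all arrays. This median was not refitted with single samples left out. Ndufs5, Ndufs6, Ndufs7 and Ndufv3 had their lowest values in a3a6KO 1 (7.11, 8.09, 3.78 and 5.39), and the others had theirs elsewhere. Of the 10 genes, Ndufv2, Ndufs1 and Ndufs7 exceeded background on no array. Besides Ndufv2, the genes with a lower mean were Ndufs1 (-0.48), Ndufv3 (-0.34), Ndufs8 (-0.33), Ndufs5 (-0.16), Ndufs6 (-0.16), Ndufs4 (-0.09), Ndufs3 (-0.06) and Ndufs7 (-0.03). The exception was Ndufv1, the subunit that binds flavin and NADH, at 0.49. Ndufv1 was at 6.34, 7.01, 8.70 and 7.24 in a3a6KO, against 6.85, 6.68, 6.27 and 7.53 in control, and a3a6KO 3 stood above the rest.

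Among the accessory subunits, the largest difference of a gene above background on all arrays was that of Ndufa1, a small membrane-arm protein encoded on the X chromosome. Ndufa1 was at 8.0, 8.76, 8.54 and 9.03 in a3a6KO, against 9.03, 9.21, 8.73 and 9.41 in control, and a3a6KO 1 was the lowest. The difference was -0.51 (95% interval -1.07 to 0.05, unadjusted p = 0.0692 in limma). In the other direction, Ndufb2 was at 0.31 and Ndufb11, also X-linked, at 0.27, with intervals that included 0. The tightest gene of the complex was Ndufa2, with values of 8.74, 8.65, 8.54 and 8.77 in a3a6KO and 8.74, 8.70, 8.85 and 8.75 in control. Ndufb4b is a close copy of Ndufb4, so probes could bind transcripts of both, and its 0.20 and the 0.16 of Ndufb4 are uncertain for that reason.

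Complex II, succinate dehydrogenase, also belongs to the citric acid cycle, and none of its 4 genes exceeded background on all arrays. Their median difference was -0.10, but 0.04 without control 4 and -0.41 without a3a6KO 3 and 4. Sdhd, a membrane anchor, was at 5.73, 6.01, 4.67 and 6.08 in a3a6KO, against 5.92, 5.82, 6.56 and 6.92 in control. Here a3a6KO 3 was low and control 3 and 4 were high, while the other samples overlapped. The difference was -0.68 (SE 0.36, unadjusted p = 0.0913 in limma), and -0.37 without a3a6KO 3. Sdhc, the other anchor, was at 5.35, 6.17, 5.97 and 6.19 in a3a6KO and 5.95, 6.39, 5.91 and 6.29 in control, a difference of -0.22 that rested on a3a6KO 1 and was -0.03 without it. The iron-sulfur subunit Sdhb was at 0.29 and the flavoprotein subunit Sdha at 0.02.

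Complex III, the cytochrome bc1 complex, had 4 members lower and 4 higher, with a median difference of 0.08. That median had no stable direction, at 0.0088 without control 1, -0.0071 without control 4 and -0.03 with dim genes left out. Uqcrc1, a core subunit that faces the matrix, had the largest positive value. It was at 6.69, 7.03, 6.84 and 7.40 in a3a6KO, against 5.37, 6.53, 6.88 and 6.86 in control. The low value of control 1 carried much of the difference, which was 0.58 (SE 0.34, unadjusted p = 0.120 in limma) with all samples and 0.23 without control 1. Uqcrc2, the other core subunit, was at 0.28, the Rieske iron-sulfur protein Uqcrfs1 at 0.26 and Uqcrb at -0.24. Uqcrh, a hinge protein that binds cytochrome c1, was close in all samples, between 11.50 and 11.61 in a3a6KO and between 11.49 and 11.67 in control.

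Complex IV, cytochrome c oxidase, had 12 members lower and 8 higher and a median difference of -0.02, which was 0.005 after each array was centred on its median, 0.0017 without a3a6KO 1 and 0.0033 without control 4. Its subunits include isoforms that are known from muscle, testis, lung or hypoxic cells, each beside a widely expressed partner. The 8 such isoforms were Cox4i2, Cox6a2, Cox6b2, Cox7a1, Cox7b2, Cox8b, Cox8c and Ndufa4l2. Of these, 7 exceeded background on no array, while their partners Cox4i1, Cox6a1, Cox6b1, Cox7a2, Cox7b, Cox8a and Ndufa4 exceeded it on all 8.

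The exception was Cox7a1, the heart and skeletal muscle form of subunit 7a, which was above background on 6 arrays. It was at 6.73, 8.90, 8.74 and 6.68 in a3a6KO, against 7.55, 7.31, 7.57 and 6.38 in control. The a3a6KO samples split, with 2 and 3 above every control and 1 and 4 below controls 1 to 3. The difference was 0.56 (SE 0.56, 95% interval -0.69 to 1.81), 0.18 without a3a6KO 2, and -0.04 without control 4 and a3a6KO 3. The 8 skeletal muscle markers (Ckm, Acta1, Myh1, Myh2, Myh4, Mylpf, Tnnt3, Tnni2) and the 4 brown adipocyte markers (Ucp1, Cidea, Elovl3, Dio2) exceeded background on no array. The mean log2 level of the muscle markers ranged from 3.2 to 3.47 in a3a6KO and from 3.21 to 3.39 in control. That of the brown adipocyte markers ranged from 3.14 to 3.42 in a3a6KO and from 2.90 to 3.39 in control.

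Cox8b, the muscle form of subunit 8, was at 3.12, 3.09, 3.63 and 3.63 in a3a6KO, against 3.30, 5.29, 3.69 and 5.22 in control. Controls 2 and 4 stood apart, and the others lay among the a3a6KO values. The difference was -1.01 (SE 0.45, unadjusted p = 0.0517 in limma), and -0.70 without control 2. Cox6b2, the testis form of subunit 6b, was at 3.90, 5.32, 5.84 and 4.24 in a3a6KO, against 4.59, 3.60, 3.58 and 5.04 in control, a difference of 0.62 (SE 0.49) that was 0.28 without a3a6KO 3. Ndufa4l2, which is induced by hypoxia in other cells, was at 3.94, 3.66, 5.40 and 3.87 in a3a6KO, against 3.32, 4.07, 3.95 and 3.54 in control. Its difference of 0.50 came from a3a6KO 3 and was 0.10 without that sample.

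Cox4i2, the lung form of subunit 4, was at 4.92, 4.60, 5.33 and 4.97 in a3a6KO, against 4.20, 4.26, 5.19 and 6.37 in control, and control 4 was the highest. The difference was -0.05, and 0.41 without control 4. The 7 endothelial markers, from other cells the gate could hold, had their highest mean log2 levels in a3a6KO 3 (5.83) and control 4 (6.44), against 3.76 to 4.65 in the other a3a6KO samples and 4.14 to 4.36 in the other controls. Ndufa4l2, however, was at 3.54 in control 4. The contractile genes Acta2, Cnn1, Mylk, Myh11 and Tagln were also highest in a3a6KO 3 and control 4, while Myl9 was highest in controls 4 and 2. The share of endothelial or contractile cells in the values of Ndufa4l2 and Cox4i2 was not tested. Cox7b2 was at 3.18, 3.30, 3.05 and 3.18 in a3a6KO, against 3.74, 3.59, 3.2 and 3.21 in control, a difference of -0.26. Cox6a2 was at 5.18, 5.08, 4.76 and 5.04 in a3a6KO and 4.58, 5.38, 4.66 and 4.71 in control, and Cox8c at 5.04, 5.17, 4.78 and 5.30 in a3a6KO and 5.31, 5.17, 4.64 and 4.44 in control. Both had a difference of 0.18 with groups that overlapped.

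The common partners differed little. Ndufa4 was at 10.91, 10.77, 10.94 and 10.93 in a3a6KO, against 10.83, 10.67, 10.57 and 10.79 in control, a difference of 0.17 (95% interval -0.16 to 0.50). Cox7a2 was at 8.86, 9.01, 8.78 and 9.13 in a3a6KO, against 9.01, 9.08, 9.53 and 9.08 in control. Its difference of -0.23 was -0.11 without control 3, the highest sample. Cox6a1 was at 10.66, 10.87, 11.18 and 11.23 in a3a6KO and 11.07, 10.99, 11.34 and 11.23 in control, a difference of -0.17. For the rest the groups lay on top of each other. Cox6b1 was at 8.88, 8.92, 9.09 and 9.10 in a3a6KO and 8.98, 9.22, 8.96 and 9.12 in control. Cox4i1 was at 10.57, 10.47, 10.40 and 10.77 in a3a6KO and 10.65, 10.52, 10.47 and 10.58 in control. Cox7b was at 10.11, 10.16 and 10.36 in a3a6KO 1, 2 and 4 and at 10 in a3a6KO 3, against 10.08, 10.06, 10.33 and 10.13 in control. Cox8a was at 10.45, 10.56, 10.72 and 10.93 in a3a6KO and 10.44, 10.68, 10.69 and 11.10 in control. The differences of these 4 genes lay between -0.07 and 0.01, and those of Cox4i1, Cox7b and Cox8a changed sign when some single samples were left out, and that of Cox4i1 also under array centring or renewed quantile normalization.

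**Figure D3:**
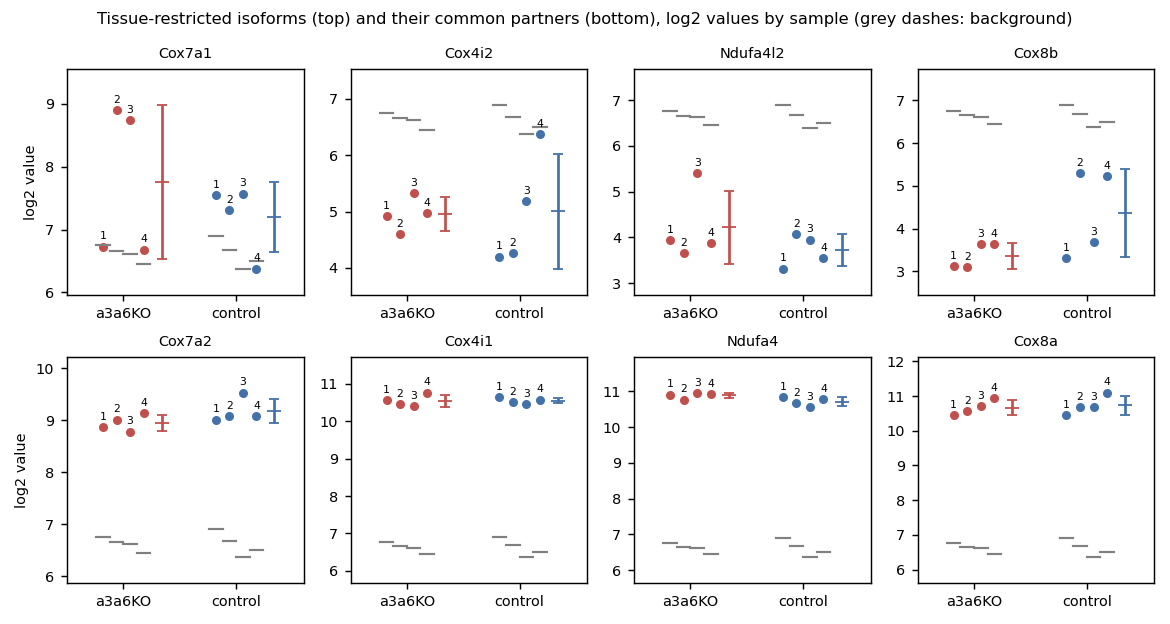
Log2 values (y axis) of 4 tissue-restricted complex IV isoforms (top) and their common partners (bottom) by sample, a3a6KO in red left of control in blue, with the mean ± SD (n = 4) as a bar and the background of each array as a grey dash. Cox7a1 is high in a3a6KO 2 and 3 (8.90 and 8.74), Ndufa4l2 in a3a6KO 3 and Cox4i2 in control 4. All 4 partners lie well above the dashes, with groups that overlap.

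Complex V, the ATP synthase, was the most even of the complexes in these data. All 17 of its members had an interval within 2-fold and 11 had one within 1.5-fold, and 16 exceeded background on all arrays, Atp5pb being the exception. The median difference was -0.04, with 10 members lower and 7 higher, and it was 0.03 without control 3 and 0.02 without a3a6KO 1. Subunit c, which forms the rotating ring, is encoded by Atp5g1, Atp5g2 and Atp5g3, which give the same mature protein. Atp5g2 was at 9.21, 9.61, 9.15 and 9.17 in a3a6KO, against 9.65, 9.51, 9.61 and 9.59 in control. Apart from a3a6KO 2, its a3a6KO samples lay below every control. The difference was -0.31 (SE 0.16, unadjusted p = 0.0913 in limma), a 1.24-fold lower level, and -0.41 without a3a6KO 2. Atp5g1 lay the other way, at 9.51, 8.99, 9.05 and 9.42 in a3a6KO, against 8.67, 8.54, 9.10 and 9.27 in control, with controls 3 and 4 inside the range of a3a6KO. Its difference was 0.35 (SE 0.22, unadjusted p = 0.147 in limma), and that of Atp5g3 was -0.07. The catalytic subunits Atp5a1 and Atp5b were at 0.15 and 0.02. Atp5b ranged from 10.74 to 10.89 in a3a6KO and from 10.77 to 10.84 in control.

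The 11 assembly factors, which help to build complexes I and III without being part of them, had 6 lower and 5 higher means and a median of -0.07. That median was 0.04 without a3a6KO 1 and -0.27 without a3a6KO 3 and 4, and only Uqcc2 and Uqcc3 exceeded background on all arrays. Ndufaf7, a methyltransferase that modifies a complex I subunit, was at 4.92, 4.66, 6.08 and 5.12 in a3a6KO, against 5.78, 5.38, 5.79 and 5.74 in control. The sample a3a6KO 3 lay above all controls and the other a3a6KO samples below all of them. The difference was -0.48 (SE 0.29) and -0.77 without a3a6KO 3. Uqcc1 had the widest interval of all members, from -2.22 to 0.58.

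Across samples, the mean deviation of the 96 members from their own mean over the 8 arrays was -0.18, -0.01, -0.03 and 0.10 in a3a6KO 1 to 4, against -0.09, 0.05, 0.06 and 0.09 in control 1 to 4. Both groups spread widely and overlapped, with means of -0.03 ± 0.12 in a3a6KO and 0.03 ± 0.08 in control (SD, n = 4 each). The lowest sample was a3a6KO 1, which held the lowest value of 26 of the 96 members, beside 2490 of all 19505 genes. The highest was a3a6KO 4, with the top value of 24 members, beside 2554 of all genes. Among the 61 members above background on all arrays, a3a6KO 4 had the highest value of 21 and the lowest of 0, beside 278 and 181 of the 1609 genes above background on all arrays. The median deviation of all genes ranged from -0.03 to -0.01 over the 8 arrays. Control 1 was the lowest control and held the lowest value of 19 members. In each group sample 1 had the highest background, at 6.76 in a3a6KO and 6.90 in control. Sample 1 also had the fewest genes above background, 2553 in a3a6KO and 2244 in control. Within the groups, a3a6KO 4 (3198) and control 3 (3229) had the most. The part of array background in these levels was not tested.

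By complex, the level of complex I was -0.27, -0.001, -0.04 and 0.10 in a3a6KO, against -0.08, 0.10, 0.07 and 0.13 in control, and a3a6KO 1 was the lowest. Complex V was at -0.06, -0.02, -0.08 and 0.14 in a3a6KO, against -0.12, 0.01, 0.09 and 0.04 in control. The assembly factors were at -0.18, -0.09, -0.11 and 0.07 in a3a6KO, against -0.06, 0.13, 0.08 and 0.16 in control. For complex III, a3a6KO stood at 0.03 ± 0.17 and control at -0.03 ± 0.20 (SD, n = 4 each). For complex IV, a3a6KO stood at 0.01 ± 0.14 and control at -0.01 ± 0.05, and for complex II, a3a6KO at -0.07 ± 0.19 and control at 0.07 ± 0.26. In every complex the groups overlapped.

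**Figure D4:**
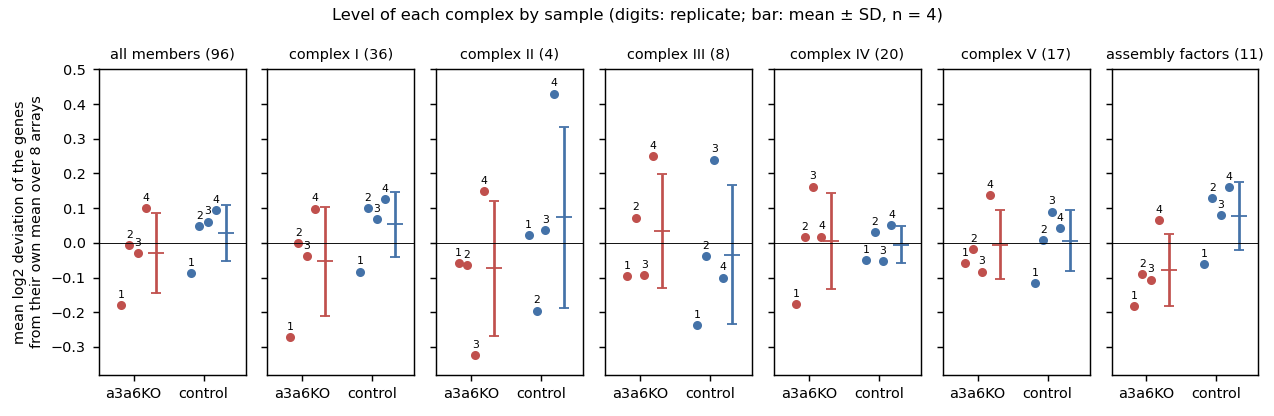
Mean log2 deviation of the genes of each complex from their own mean over 8 arrays (y axis), by sample, with a3a6KO in red left of control in blue, replicate numbers as digits and the mean ± SD (n = 4) as a bar. The number of genes stands in each title. Within each group the samples spread over more than the distance between the group means, with a3a6KO 1 low and a3a6KO 4 high over all members (-0.18 and 0.10).

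**Figure D5:**
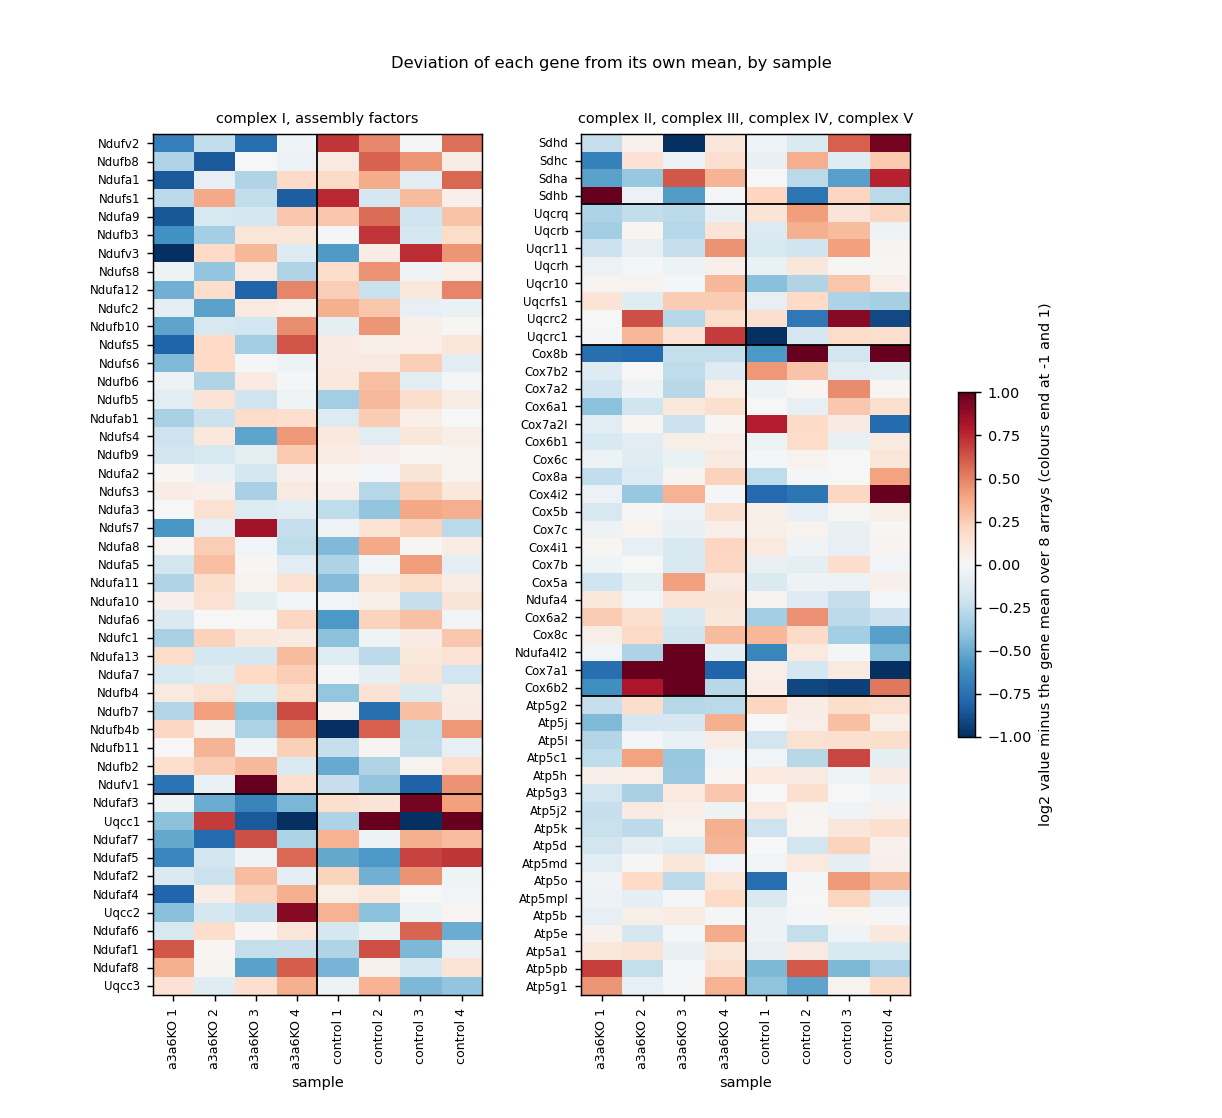
Deviation of each of the 96 genes (rows) from its own mean over 8 arrays, in log2 units from blue (-1 or less) to red (1 or more), for each sample (columns, a3a6KO left of control). Within each complex, genes run from the lowest to the highest difference of a3a6KO minus control. Blue is frequent in the column of a3a6KO 1, and strong colours are frequent in genes under background such as Uqcc1, Cox8b and Cox6b2.

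Genes that work beside the complexes were no more uniform. The 5 other genes of electron transfer that were measured had 1 lower and 4 higher means, none at an unadjusted p under 0.05. Cytochrome c1, encoded by Cyc1, was at 0.27 and somatic cytochrome c, Cycs, at 0.14. Of 46 other assembly factors of complexes I to V, 26 were lower, with a median of -0.06. Among them, Cox15, needed to make the heme of complex IV, was at -0.76 (unadjusted p = 0.0165 in limma) under background on all arrays, and Aifm1, a protein that supports complex I, at -0.42 (unadjusted p = 0.0547). Of 12 genes of coenzyme Q synthesis, 8 were lower with a median of -0.23, and Coq6 was at -0.80 (unadjusted p = 0.0304), with none of the 12 above background on all arrays. The mitochondrially encoded subunits were not analysed here.

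The enzymes that feed electrons into the chain were mixed. Of 17 genes of pyruvate dehydrogenase and the citric acid cycle, 7 were lower and 10 higher, with a median of 0.04. Pdhb, the beta subunit of pyruvate dehydrogenase, was at 8.01, 8.35, 8.09 and 8.09 in a3a6KO, against 8.48, 8.68, 8.61 and 8.52 in control, without overlap, a difference of -0.44 (SE 0.15, unadjusted p = 0.0172 in limma). Suclg1, a subunit of succinyl-CoA synthetase, lay the other way at 0.59 (SE 0.23, unadjusted p = 0.0277). The 7 transporters of adenine nucleotides and phosphate and the porins had 2 lower and 5 higher means and a median of 0.23. The 76 mitochondrial ribosomal protein genes had 38 lower and 38 higher means and a median of 0. The 15 measured genes of glycolysis had 9 lower means and a median of -0.14, with Tpi1 at -0.95 (SE 0.24, unadjusted p = 0.0032), above background on 3 control arrays alone. None of these genes passed an adjusted p under 0.05.

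Among 20 regulators of mitochondrial biogenesis, 7 were lower and 13 higher, with a median of 0.12 and 15 genes above background on no array. Ppargc1b, a coactivator of the estrogen-related receptors, was at 5.63, 5.70, 5.82 and 5.20 in a3a6KO, against 7.0, 7.02, 6.31 and 5.98 in control. The groups did not overlap, and the difference was -0.99 (SE 0.27, unadjusted p = 0.0049 in limma), but only 2 control arrays exceeded background. Nrf1, which encodes the factor whose motif was common in the member windows, was at 6.59, 5.18, 5.44 and 5.24 in a3a6KO, against 4.03, 4.49, 4.44 and 4.82 in control, a difference of 1.17 (SE 0.32, unadjusted p = 0.0055) with all values under background. Ppargc1a was at -0.38, Tfam at 0.56 and Gabpa at 0.10 (unadjusted p from 0.103 to 0.729). Gabpa was above background on all arrays, and its sign changed when a3a6KO 1, control 3 or control 4 was left out.

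Markers of other cell types moved with the groups in part. All 11 basal and myoepithelial markers had lower means in a3a6KO, beside 50.1% of all genes, with a median of -0.62. At an unadjusted p under 0.05 in limma stood 4 of them (36.4%), beside 2.73% of all genes lower in a3a6KO. Trp63 at -2.43 and Krt5 at -2.54 were among these. None passed an adjusted p under 0.05, and the smallest was 0.944. Krt14 exceeded background on all arrays, Krt5 on 4 and Trp63 on 1. Their mean log2 level was 5.48, 5.44, 7.25 and 5.71 in a3a6KO, against 6.17, 7.46, 6.16 and 7.89 in control. The markers did not run together across samples. Krt5 was at 4.41, 4.12, 5.47 and 7.03 in a3a6KO, against 5.38, 9.44, 9.54 and 6.81 in control, while the contractile gene Cnn1 was at 5.84, 5.79, 8.83 and 6.11 in a3a6KO, against 7.17, 6.99, 5.40 and 9.50 in control. Controls 2 and 4, with the highest mean level of the list, were also the samples with the highest values of Cox8b (5.29 and 5.22) and Uqcc1 (5.89 and 5.35). In a3a6KO 3, with the next highest level (7.25), Cox8b was at 3.63 and Uqcc1 at 3.30. Both genes were under background on every array. The leukocyte markers had a mean log2 level of 3.77 to 3.93 in a3a6KO and 3.79 to 4.84 in control, with the highest value in control 3, and the fibroblast markers one of 4.09 to 5.15 in a3a6KO and 4.05 to 4.69 in control. Among the fibroblast markers, Col1a2 was at 0.61 without overlap (unadjusted p = 0.0068 in limma) and Col3a1 at 0.88 (unadjusted p = 0.0287), both higher in a3a6KO and under background on every array. The white adipocyte markers lay at 3.74 to 4.17 in a3a6KO and 3.74 to 4.08 in control, all under background on every array. The part of these cells in the member values was not tested.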

How the data were processed

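Expression was measured on Affymetrix arrays in sorted luminal cells, 4 a3a6KO and 4 control samples. The deposited log2 intensities were made by the authors with Affymetrix Expression Console and RMA, per the submitters' processing notes, with no versions stated. RMA's quantile step would remove a shift shared by most genes. Of 28846 probe sets, 19572 had 1 symbol in GEO's platform annotation, 0 several and 9274 none. For 55 genes with several sets, the set of highest mean was kept, leaving 19505 genes. No source used here names the build behind the probe sets.

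The groups were compared in a single limma fit (version 3.58.1, R 4.3.3) of all 8 arrays on genotype alone, with moderated two-sided p-values, Benjamini-Hochberg adjustment over all genes, a threshold of 0.05 and no pseudocount or filter. The fit was tested on simulated data. Background was the 95th percentile of the negative control sets of each array. The labels give 4 biological replicates per group.

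The members, complexes and 20 gene lists were chosen with earlier results of these data known. Named with all sample values were Ndufv2, Ndufb8, members at an unadjusted p under 0.05, the 2 of smallest p per complex, the 3 largest differences in each direction, and tissue-restricted isoforms with their partners, 25 members in all, and up to 2 genes of smallest p from other lists. Ndufa1, Ndufa2, Ndufv1 and members given by their difference alone were chosen after their values were seen. Promoter windows are RefSeq's. Over all 19505 genes, same-numbered samples did not deviate together (correlations -0.06 to 0.04), so the numbers were not used as pairs in the main fit. The mean level of the 96 members, however, was lowest in sample 1 and highest in sample 4 of both groups. Alternatives changed the normalization, centring, background filter, probe set rule, variance model, weights, block, members and samples.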

Additional observations from a re-analysis of the deposited data

Results flagged for a closer look

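Of 64 groups of 4 samples examined, 5 held a sample far from the others, judged by its gap to the nearest sample against the range of the group. Chance gives about 1 in 20 such groups. Atp5g2 was high in a3a6KO 2, at 9.61 against 9.15 to 9.21 in the other a3a6KO samples. Ndufa4l2 was high in a3a6KO 3, at 5.40 against 3.66 to 3.94 in the others. Ndufaf7 was low in control 2, at 5.38 against 5.74 to 5.79 in the other controls. Cox6a2 was high in control 2, at 5.38 against 4.58 to 4.71. Cox7a2 was high in control 3, at 9.53 against 9.01 to 9.08. Of these genes, Atp5g2 and Cox7a2 exceeded background on all arrays, and the others on none.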

How the results depend on the processing

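No gene and no member passed an adjusted p under 0.05 in limma under any of the 17 alternatives run for all genes. The number of members at an unadjusted p under 0.05, 4 of 96, was 1 of 70 when genes above background on fewer than 4 arrays were left out, since Ndufv2, Ndufaf3 and Ndufb8 were then not tested. It ranged from 3 to 6 when single samples were left out. Without a3a6KO 3 and 4 together, an alternative chosen after seeing the data, it was 6, and without control 4 and a3a6KO 3, also chosen then, 4. The number of members higher in a3a6KO, 39, ranged from 33 to 48 with single samples left out and was 44 after array centring, 42 after renewed quantile normalization and 47 without control 4 and a3a6KO 3. With the replicate number as a block, 0 genes passed, 39 members were higher and 5 stood at an unadjusted p under 0.05 in limma. No source used here says that the numbers pair the samples. Some differences of named genes turned sign, and the cause was not tested. Without control 4 and a3a6KO 3, Cox7a1 was at -0.04, Cox4i2 at 0.28, Cox4i1 at 0.057 and Cox8a at 0.043. Cox4i1 was at 0.025 after array centring and 0.013 after quantile normalization, and Cox7b at -0.015 without a3a6KO 3 and 4. With single samples left out, Cox4i2 ranged from -0.32 to 0.41, Cox4i1 from -0.075 to 0.048, Cox7b from -0.06 to 0.0675, Cox8a from -0.16 to 0.062, Gabpa from -0.064 to 0.26, Vwf from -0.65 to 0.0225 and Lipe from -0.0325 to 0.48. Dim signal limits the 35 members not above background on all arrays.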
